A study of Drosophila melanogaster with 16 samples.

Results

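The mitochondrial genome of *Drosophila melanogaster* encodes 13 proteins, and 6 of them are subunits of complexes III, IV and V: CYTB, COX1, COX2, COX3, ATP6 and ATP8. These 6 genes were taken by their gene IDs from a table of read counts for 17207 genes, whatever their values, and they are described here in larvae of 2 mitotypes on 2 diets. They are 6 of 37 mtDNA-encoded genes, and all 6 passed the filter on low counts (0.25 CPM, counts scaled to one fixed library size, in at least 4 libraries), as did 12750 genes in all. The RNA-seq libraries came from female wandering larvae of the third instar that carried Alstonville or Dahomey mtDNA in the same w1118 nuclear background, and that fed on a medium of either 1:2 or 1:16 protein to carbohydrate (P:C). The 4 groups were therefore Alstonville on 1:2, Dahomey on 1:2, Alstonville on 1:16 and Dahomey on 1:16 P:C food, with 4 libraries each, and the study asked whether diet and mitotype act together on the larvae. The design limits the comparison in that each mitotype stands for all differences between its line and the other, including any that remain on chromosome 4, which balancer crosses did not replace and backcrossing only reduced. The study describes the RNA as larval, while the extraction protocol in the labels speaks of sorted cells, and the libraries are treated here as whole larvae. The labels name separate replicates but not what separates them, so p-values measure the spread between these libraries.

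Oxidative phosphorylation passes electrons from complex I or II through complex III to cytochrome c and complex IV, and the resulting proton gradient drives complex V, the ATP synthase. The subunits at the core of complexes III, IV and V are made inside the mitochondrion from mtDNA, while most of their other subunits, the enzymes that transcribe mtDNA and the factors that stabilise its mRNAs are nuclear-encoded and imported. Animal mtDNA is transcribed as long precursors that are cut at the tRNAs between the genes. The mRNAs cut from one precursor can differ in stability, and ATP8 and ATP6 stay together in one mRNA. Larval body wall muscle is rich in mitochondria, and the larval fat body and salivary glands change their expression late in the third instar.

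All 6 genes lie on the plus strand of the mitochondrial chromosome (MT) in the Release 6 plus ISO1 MT assembly. COX1 (GeneID 19893533, 1474 to 3009) and COX2 (GeneID 19893535, 3083 to 3767) encode the catalytic subunits of complex IV, cytochrome c oxidase, and COX3 (GeneID 19893540, 4736 to 5524) encodes its other core subunit. ATP8 (GeneID 19893538, 3907 to 4068) and ATP6 (GeneID 19893539, 4062 to 4736) encode membrane subunits of the ATP synthase, and ATP6 forms part of its proton channel. CYTB (GeneID 19893556, 10499 to 11635), apart from the others, encodes cytochrome b of complex III. Each is a single coding exon. ATP8 shares 7 bases with ATP6 and ATP6 shares 1 base with COX3, so reads over these junctions belong to both genes, and how the counting treated such reads was not stated. The strand of the reads was not used in any stated way either, so RNA from the opposite strand of the same positions cannot be told apart from these mRNAs. According to the study's list of differences between the mitotypes, ATP6 and COX3 differ by amino acid changes, COX1 and CYTB by silent changes only, and COX2 and ATP8 are not listed; reads of both mitotypes were aligned to the same reference mtDNA, and the part of such mismatches in the counts was not tested.

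The 16 libraries held 24869991 to 31896525 counts. The 6 genes together took a mean of 2.31 ± 0.144% of all counts with Alstonville mtDNA on 1:2 (SD, n = 4) and 3.59 ± 0.111% on 1:16. With Dahomey mtDNA they took 2.64 ± 0.177% and 3.15 ± 0.307% of the counts. They made up 89.0 to 91.7% of the counts on the 13 mtDNA protein-coding genes in every library, so the remainder, the ND genes of complex I, was small. In bulk RNA, fewer cells of a type and less RNA per cell cannot be told apart. Libraries were scaled with trimmed mean of M values (TMM) factors, which ran from 0.794 to 0.861 in Alstonville on 1:16 and from 0.849 to 1.21 on 1:2. Levels below are CPM after this scaling.

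A pair of libraries stood apart from the others of their groups. Alstonville 1:2 replicate 4 had a factor of 0.849 against 1.16 to 1.19 in the other 3, and its 7 muscle markers summed to 27467 CPM against 1643 to 6773. It was also the highest of its group in the 6 fat body markers (145233 against 47630 to 73652 CPM) and the 6 midgut markers (13083 against 3075 to 6328 CPM). Dahomey 1:16 replicate 2 had 2639 CPM on the 6 salivary glue genes, which are transcribed in wandering larvae, against at most 6.60 CPM in the other 7 libraries of that diet and 8900 to 16003 CPM in the 8 libraries of the 1:2 P:C diet. Where a call on the level of the 6 genes changed without either library, both fits are given. Fold changes between the diets in Alstonville, and those of the ND and nuclear genes, are given over all 16 libraries only. The muscle, fat body, midgut and glue markers were all detected in every library. Muscle markers ran from 56765 to 63799 CPM in Alstonville and from 26451 to 54790 CPM in Dahomey larvae on 1:16, against at most 27467 CPM on 1:2. The 6 fat body markers ran the other way, from 5380 to 48682 CPM on 1:16 and from 47630 to 145233 CPM on 1:2, and the 6 midgut markers from 13120 to 24601 and from 3075 to 13083 CPM. Diet and this difference in tissue or stage markers cannot be told apart in these libraries. The libraries are described as female, and the 4 male marker genes that could be matched summed to 13.4 to 761 CPM, with 2 to 4 of them detected. On 1:2 they ran from 16.3 to 212 CPM in Alstonville and from 13.4 to 761 CPM in Dahomey. On 1:16 they ran from 114 to 510 and from 266 to 357 CPM. Whether RNA of male larvae was present was not tested.

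Per length, COX3 and COX1 had the highest levels of the 6 genes and ATP8 by far the lowest. In Alstonville larvae on 1:2 the levels in CPM per kilobase of gene were 7058 ± 1793 for COX3, 6090 ± 1448 for COX1, 3199 ± 841 for CYTB, 2491 ± 534 for COX2, 2042 ± 640 for ATP6 and 6.93 ± 0.874 for ATP8 (mean ± SD, n = 4). The order of these means was the same with Dahomey mtDNA on 1:2 and in both mitotypes on 1:16. COX3 was above COX1 in each of the 16 libraries, by less than the spread between libraries in Alstonville on 1:2, where COX3 ran from 6071 to 9745 and COX1 from 5240 to 8257 CPM per kilobase. In that group neither CYTB and COX2 nor COX2 and ATP6 were separated by their spread. In Alstonville on 1:16 all neighbours but COX3 and COX1 were separated by their spread, with COX3 at 13421 ± 966, COX1 at 11750 ± 665, CYTB at 6805 ± 356, COX2 at 5622 ± 363, ATP6 at 4008 ± 234 and ATP8 at 18.8 ± 4.09 CPM per kilobase. The lowest COX3 library (12420) was below the highest COX1 library (12707).

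ATP8 was counted 16 to 134 times per library, against 31227 to 67856 times for ATP6, with which it shares an mRNA. Its values therefore carry a counting error that the other 5 genes do not, and the part of the shared bases and of its length of 162 bases in this low count was not tested. COX1, the most counted of the 6, had 285912 to 470265 counts per library.

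The first question was how the carbohydrate-rich diet moved these genes within a mitotype. In larvae carrying Alstonville mtDNA all 6 genes were higher on 1:16 than on 1:2 P:C food, by 0.93 to 1.44 on the log2 scale, and the libraries of the 2 diets did not overlap for any of them. In larvae carrying Dahomey mtDNA 4 of the 6, COX2, ATP6, CYTB and COX3, were higher, by 0.46 to 0.64, and COX1 and ATP8 did not pass the test.

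**Figure D1:**
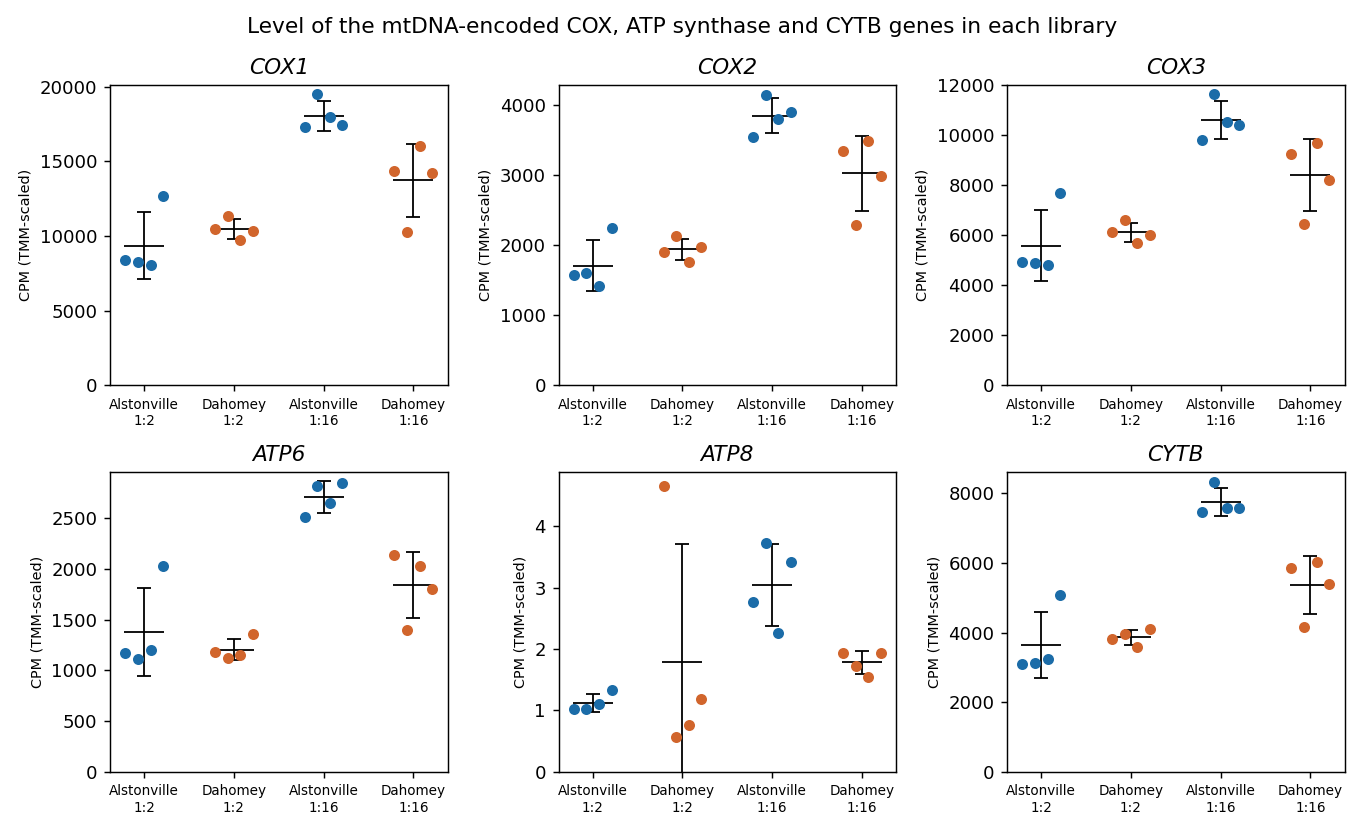
Level of each gene in CPM after TMM scaling (vertical axes, starting at 0) in the 4 libraries of each mitotype and P:C diet; points are libraries in the order of their replicate numbers, and the line and bars are the mean and 1 SD. All 4 Alstonville libraries on 1:16 lie above every other library for COX1, COX2, COX3, ATP6 and CYTB, and the single high Alstonville library on 1:2 is replicate 4; the lower SD bar of ATP8 in Dahomey on 1:2 runs below 0.

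COX1 in Alstonville larvae measured 8405, 8279, 8048 and 12683.5 CPM in replicates 1 to 4 on the 1:2 diet and 17296, 19518, 17956 and 17420 CPM on the 1:16 diet. In Dahomey larvae it measured 10465, 11333, 9756 and 10309 CPM on 1:2 and 14344, 10296.5, 16069 and 14232 CPM on 1:16. The Alstonville libraries of the 2 diets were apart, whereas Dahomey 1:16 replicate 2 fell among the Dahomey libraries of the 1:2 diet. The log2 fold change of 1:16 over 1:2 was 0.95 (SE 0.17, adjusted p = 3.78e-04 in edgeR's quasi-likelihood test with Benjamini-Hochberg adjustment over 12750 genes) in Alstonville and 0.39 (SE 0.17, adjusted p = 0.0746) in Dahomey. Without Dahomey 1:16 replicate 2 the Dahomey value was 0.51 with an adjusted p of 0.0202, and without Alstonville 1:2 replicate 4 it was 0.39 with 0.0154 in the same test.

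COX2, which carries the copper site that receives electrons from cytochrome c, measured 1573, 1597, 1414 and 2242 CPM in Alstonville on 1:2 and 3552, 4152, 3798.5 and 3900 CPM on 1:16. In Dahomey it measured 1900, 2130, 1766 and 1971 CPM on 1:2 and 3345, 2287, 3495 and 2996 CPM on 1:16. The diets did not overlap in either mitotype. COX2 rose by 1.17 on the log2 scale in Alstonville (SE 0.16, adjusted p = 4.07e-05) and by 0.64 in Dahomey (SE 0.16, adjusted p = 0.00470). Among the 6 genes, COX2 alone kept its call in both mitotypes under all 12 other scalings, filters and models and with each of the 16 libraries left out in turn.

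COX3 measured 4909, 4886, 4790 and 7689 CPM in Alstonville on 1:2 and 9799, 11629, 10517 and 10410.0 CPM on 1:16. In Dahomey it measured 6130, 6600, 5675 and 6010 CPM on 1:2 and 9238, 6448, 9699 and 8221 CPM on 1:16. The diets did not overlap in Alstonville, and in Dahomey replicate 2 of the 1:16 diet was below the highest library of the 1:2 diet. The log2 fold change was 0.93 in Alstonville (SE 0.17, adjusted p = 4.53e-04) and 0.46 in Dahomey (SE 0.17, adjusted p = 0.0396). The call in Dahomey was lost with 9 of the 16 libraries left out in turn, namely Alstonville 1:16 replicates 3 and 4 and all Dahomey libraries but 1:16 replicate 2 (adjusted p up to 0.112), with the replicate number as a block (adjusted p = 0.0673), and with no filter beyond 1 count (adjusted p = 0.0563).

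ATP6 measured 1172, 1117, 1201 and 2025 CPM in Alstonville on 1:2 and 2508, 2816, 2648 and 2848 CPM on 1:16. In Dahomey it measured 1186, 1119, 1151 and 1357 CPM on 1:2 and 2137, 1402, 2029 and 1801 CPM on 1:16. The diets did not overlap in either mitotype, though the lowest Dahomey library on 1:16 was close to the highest on 1:2. The log2 fold change was 0.97 in Alstonville (SE 0.19, adjusted p = 5.57e-04) and 0.61 in Dahomey (SE 0.19, adjusted p = 0.0143). The Dahomey call was lost only without Dahomey 1:2 replicate 2 (adjusted p = 0.0641).

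ATP8 had 35, 39, 42 and 33 counts in the Alstonville libraries on 1:2 and 66, 90, 51 and 74 on 1:16. In Dahomey it had 134, 16, 24 and 37 counts on 1:2 and 46, 50, 37 and 55 on 1:16. As CPM the diets did not overlap in Alstonville (1.03 to 1.33 on 1:2, 2.26 to 3.74 on 1:16), and in Dahomey replicate 1 of the 1:2 diet, at 4.65 CPM, was above every other library of the series. The log2 fold change was 1.44 in Alstonville (SE 0.52, adjusted p = 0.0288), a call lost without replicate 1, 2 or 3 of Alstonville on 1:2 or replicate 2 or 4 on 1:16 (adjusted p up to 0.0647). In Dahomey it was -0.00 (SE 0.51, adjusted p = 0.995), and without replicate 1 of the 1:2 diet it was 1.09 with an adjusted p of 0.00904.

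CYTB measured 3110, 3119, 3251 and 5068 CPM in Alstonville on 1:2 and 7448, 8336, 7581 and 7583 CPM on 1:16. In Dahomey it measured 3803, 3963, 3575 and 4096 CPM on 1:2 and 5859, 4162, 6035 and 5404 CPM on 1:16. Both mitotypes had diets that did not overlap, in Dahomey by a small margin at replicate 2. The log2 fold change was 1.09 in Alstonville (SE 0.17, adjusted p = 1.08e-04) and 0.48 in Dahomey (SE 0.17, adjusted p = 0.0308). The Dahomey call was lost with 6 of 16 libraries left out in turn, all of them Dahomey libraries other than 1:16 replicate 2 and 1:2 replicate 4 (adjusted p up to 0.0941).

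These counts stand beside a diet difference that reached much of the transcriptome. Of all 12750 genes tested, 59.9% were called in Alstonville and 49% in Dahomey in either direction, and 30.6% and 24.6% were called as higher on 1:16. Groups that did not overlap, with all 1:16 libraries higher, were found for 29.1% of the genes in Alstonville and 25.1% in Dahomey, against 6 and 3 of the 6 genes here (COX2, ATP6 and CYTB in Dahomey). The median log2 fold change over all tested genes was -0.11 in Alstonville and -0.12 in Dahomey. With library totals in place of scaling factors, an alternative chosen after seeing the data, these medians moved to -0.50 and -0.32, and the values of the 6 genes moved with them, to between 0.58 and 1.06 in Alstonville and between -0.18 and 0.44 in Dahomey. Relative to the median of all genes, no gene of the 6 moved by more than 0.0534 (ATP6 in Alstonville) in either diet comparison among TMM, relative log expression, upper-quartile and library-total scaling.

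**Figure D2:**
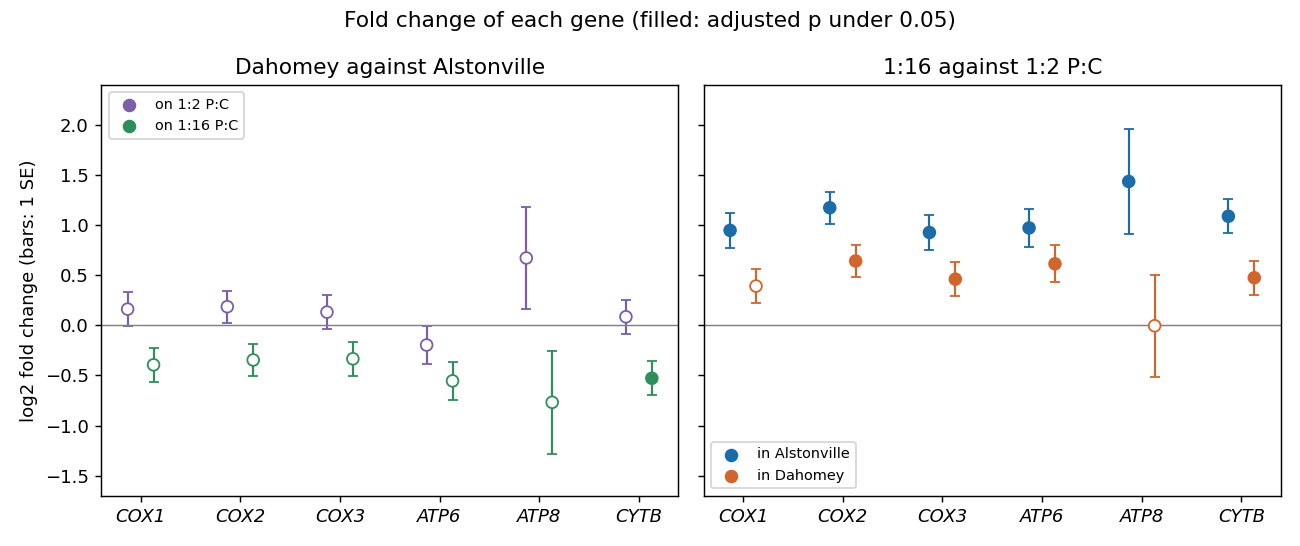
log2 fold change (vertical axis) of each gene, Dahomey over Alstonville on each P:C diet (left) and 1:16 over 1:2 P:C in each mitotype (right); bars are 1 SE from the fit over 16 libraries, and filled points have an adjusted p under 0.05. On the right all 6 Alstonville points are filled, between 0.93 and 1.44, and each lies above the Dahomey point of the same gene; on the left only CYTB on 1:16, at -0.53, is filled.

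The second question was whether the mitotypes differed on the same food. On 1:2 P:C food none of the 6 genes passed the test in edgeR or under any of the 12 other settings, and none had an unadjusted p under 0.05 in edgeR (of all genes, 0.0941% passed and 4.4% had such a p). COX1, COX2, COX3, CYTB and ATP8 had log2 fold changes of Dahomey over Alstonville between 0.09 and 0.67, and ATP6 had -0.20 (SE 0.19, adjusted p = 0.976). Without Alstonville 1:2 replicate 4, the library with high muscle, fat body and midgut markers, the value of ATP6 was 0.05, so its direction on this diet rested on that library. With that library and Dahomey 1:16 replicate 2 both left out, COX1, COX2, COX3 and CYTB had log2 fold changes of 0.29 to 0.35 with adjusted p from 0.331 to 0.381. Of all genes, 7 of 12704 passed in that fit, which was chosen after seeing the data. It left out the highest Alstonville library on 1:2 for these genes, which by itself raises their differences, so no conclusion is drawn from it.

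On 1:16 P:C food every Dahomey library was below every Alstonville library for all 6 genes. The same separation was found for 24.2% of all genes tested, and 15.3% of all genes were called in either direction and 9.3% as lower in Dahomey. Of the 6, CYTB was called, with a mean of 5365 ± 845 CPM in Dahomey against 7737 ± 404 CPM in Alstonville (mean ± SD, n = 4), a log2 fold change of -0.53 (SE 0.17, adjusted p = 0.0487). ATP6 was next, at 1842 ± 325 against 2705 ± 158 CPM, a log2 fold change of -0.55 (SE 0.19, adjusted p = 0.0593). The study itself listed ATP6 as lower in Dahomey on this diet, both in its own RNA-seq analysis and by RT-qPCR. COX1 had a log2 fold change of -0.39 (SE 0.17, adjusted p = 0.134), COX2 one of -0.35 (SE 0.16, adjusted p = 0.153), COX3 one of -0.33 (SE 0.17, adjusted p = 0.194) and ATP8 one of -0.77 (SE 0.51, adjusted p = 0.295). Unadjusted p was under 0.05 for 4 of the 6, CYTB, ATP6, COX1 and COX2, and for 32% of all genes.

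The call of CYTB was close to the threshold and moved with the settings. It held in 7 of 12 other settings (adjusted p from 5.78e-05 to 0.103) and without replicate 1, 2 or 4 of Alstonville on 1:2 (adjusted p down to 0.00614), and was lost without any of the other 13 libraries (0.0502 to 0.138). ATP6 passed in 6 of the 12. Without Alstonville 1:2 replicate 4 alone, 3 genes were called: CYTB (adjusted p = 0.00614), ATP6 (0.00734) and COX1 (0.0342). The log2 fold changes of ATP6 (-0.55) and COX1 (-0.39) were as in the main fit. Calls over all genes rose as well, from 1952 of 12750 to 2916 of 12735. Without Dahomey 1:16 replicate 2, the lowest Dahomey library for COX1, COX2, COX3, ATP6 and CYTB, the log2 fold change of CYTB was -0.42 with an adjusted p of 0.138. With that library and Alstonville 1:2 replicate 4 both left out it was again -0.42, with 0.00673, and ATP6 was -0.44 with 0.00928. Of all genes, 2081 of 12704 were called in that fit. Summed muscle markers were also higher in all Alstonville than in all Dahomey libraries on this diet, and their part in the lower values of the 6 genes in Dahomey was not tested.

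The third question was whether the diet response differed between the mitotypes. The interaction, the diet response of Dahomey minus that of Alstonville, was below 0 for each of the 6 genes. It was -0.61 for CYTB (SE 0.24, adjusted p = 0.224), -0.56 for COX1 (SE 0.24, adjusted p = 0.295), -0.53 for COX2 (SE 0.23, adjusted p = 0.276), -0.47 for COX3 (SE 0.24, adjusted p = 0.401), -0.36 for ATP6 (SE 0.26, adjusted p = 0.559) and -1.44 for ATP8 (SE 0.72, adjusted p = 0.375). None passed in edgeR, where 0.784% of all genes did, and 3 of the 6, CYTB, COX1 and COX2, had an unadjusted p under 0.05, as did 15.2% of all genes. Leaving out Alstonville 1:2 replicate 4 gave a call for COX1 (-0.74, adjusted p = 0.0469) and CYTB (-0.82, adjusted p = 0.0339). Of all genes, 396 of 12735 were called in that fit, against 100 of 12750 in the main one. Leaving out both libraries that stood apart gave calls for CYTB (-0.71, adjusted p = 0.0261), COX1 (-0.62, 0.0338), COX2 (-0.58, 0.0466) and COX3 (-0.55, 0.0496). That fit was chosen after seeing the data and called 318 of 12704 genes. Both fits left out the highest Alstonville library on 1:2 for these genes. The diet responses called in Alstonville and not in Dahomey, those of COX1 and ATP8, were thus not shown to differ between the mitotypes over all libraries.

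The shares of the 6 genes among the 13 mtDNA protein-coding genes were compared as well, a measure that does not depend on the scaling of the libraries. COX1 held 36.8 to 40.9% of these counts, COX3 21.5 to 23.9%, CYTB 14.3 to 16.4%, COX2 6.82 to 8.65%, ATP6 4.04 to 6.16% and ATP8 0.00207 to 0.0182%. Differences were tested with a two-sided exact permutation test of 4 against 4 libraries, for which 0.0286 is the smallest possible p, and were adjusted over the 13 genes of each comparison. No share of the 6 passed 0.05 after that adjustment in any of the 4 comparisons.

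ATP6 took a smaller share in Dahomey than in Alstonville on 1:2. The shares were 5.57, 5.32, 5.84 and 6.16% in Alstonville and 4.63, 4.04, 4.79 and 5.15% in Dahomey, groups that did not overlap (difference of means -1.07 percentage points, exact permutation p = 0.0286, adjusted p = 0.186). Of the 13 shares 2 were separated in that comparison, ATP6 and ND3. In CPM the groups of ATP6 overlapped, as did those of the other 5 genes, while 0.831% of all genes had all Dahomey libraries lower. On 1:16 the ATP6 shares overlapped, at 5.39 to 6.01% in Alstonville and 4.93 to 5.53% in Dahomey (exact permutation p = 0.0857). ATP6 is also one of the genes with amino acid differences between the mitotypes, and the part of alignment to the shared reference in its share was not tested.

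On the 1:16 P:C diet CYTB took 16.4, 16.0, 15.9 and 16.0% in Alstonville and 15.2, 15.3, 14.7 and 14.9% in Dahomey, lower in each Dahomey library (exact permutation p = 0.0286, adjusted p = 0.0619). COX3 went the other way, with 21.5 to 22.3% in Alstonville and 22.7 to 23.9% in Dahomey, and so did COX2, with 7.81 to 8.23% and 8.27 to 8.65%, at the same p and adjusted p. With all mtDNA-encoded genes as the denominator these last differences turned sign, to -0.0645 percentage points for COX3 and -0.0573 for COX2. Of all 13 shares, 6 were separated in that comparison, and 7 were between the diets in Alstonville. Among them were 4 of the 6 genes: COX1 (at least 38.6% on 1:2, at most 38.0% on 1:16) and COX3 (23.3 to 23.4%, 21.5 to 22.3%) were lower on 1:16, and COX2 (6.82 to 7.61%, 7.81 to 8.23%) and CYTB (14.8 to 15.8%, 15.9 to 16.4%) were higher (exact permutation p = 0.0286 and adjusted p = 0.0531 for each). Within Dahomey 2 of 13 shares were separated, COX2 and ND3, with COX2 at 7.35 to 7.69% on 1:2 and 8.27 to 8.65% on 1:16 (exact permutation p = 0.0286, adjusted p = 0.186). A share of COX2 that was larger on the 1:16 P:C diet was thus seen in both mitotypes, also where all mtDNA-encoded genes served as the denominator, whereas the differences of COX1 and COX3 between the diets in Alstonville turned their sign there.

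**Figure D3:**
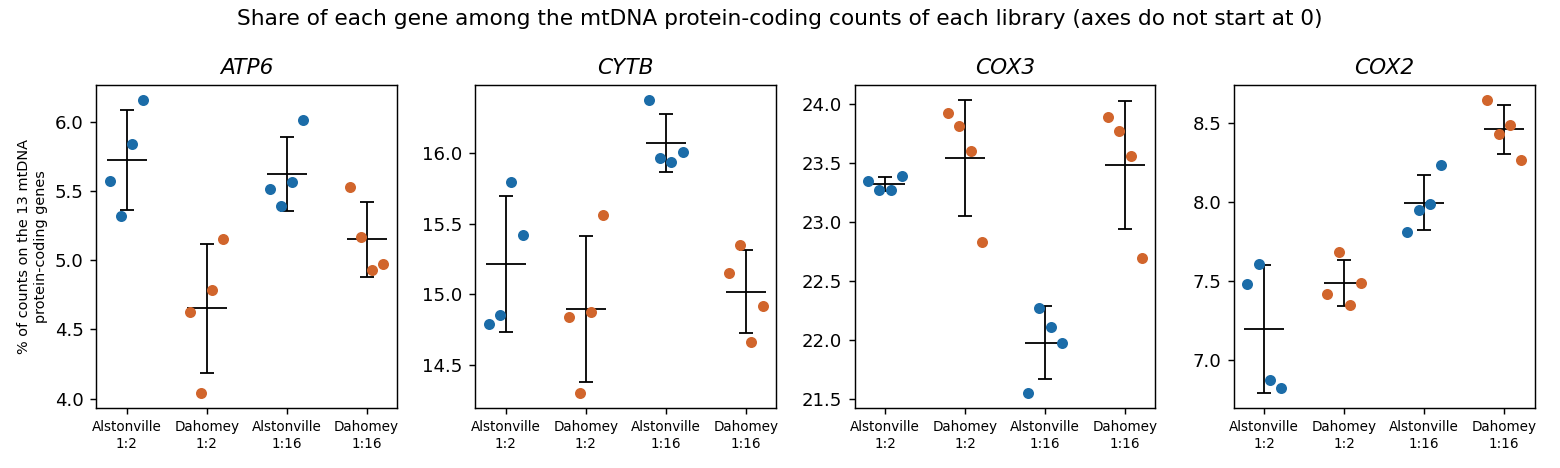
Share of ATP6, CYTB, COX3 and COX2 in the counts on the 13 mtDNA protein-coding genes, in percent (vertical axes, which do not start at 0), in the 4 libraries of each mitotype and P:C diet; points are libraries, line and bars the mean and 1 SD. ATP6 is lower in all Dahomey than in all Alstonville libraries on 1:2 (4.04 to 5.15% against 5.32 to 6.16%), and COX2 is higher on 1:16 than on 1:2 in both mitotypes.

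The partners of these 6 proteins gave a wider context. Of 48 listed nuclear genes 46 were tested: 9 subunits of complex III with cytochrome c, 9 of complex IV, 13 of complex V, 6 complex IV assembly factors and 9 genes of mitochondrial transcription and mRNA handling. On the 1:16 P:C diet all 31 nuclear subunits were higher than on 1:2 in both mitotypes, with a median log2 fold change of 2.03 in Alstonville and 1.77 in Dahomey, against medians of 1.03 and 0.47 for the 6 mtDNA-encoded genes. In complex IV the nuclear subunits rose by 1.77 to 2.27 in Alstonville and by 1.44 to 1.94 in Dahomey, for example COX5B (2.27, adjusted p = 2.17e-05, and 1.94, adjusted p = 1.71e-04), against 0.93 to 1.17 and 0.39 to 0.64 for COX1, COX2 and COX3. In complex V they rose by 1.74 to 2.28 and by 1.45 to 2.04, led by ATPsynbeta of the catalytic head, and in complex III by 1.22 to 2.92 and by 0.86 to 2.67, led by cytochrome c (Cyt-c-p), with UQCR-11, named after its value was seen, at the lower end. By its fold change each mtDNA-encoded gene was thus below each tested nuclear subunit of its complex in both mitotypes, a difference that was not tested.

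**Figure D4:**
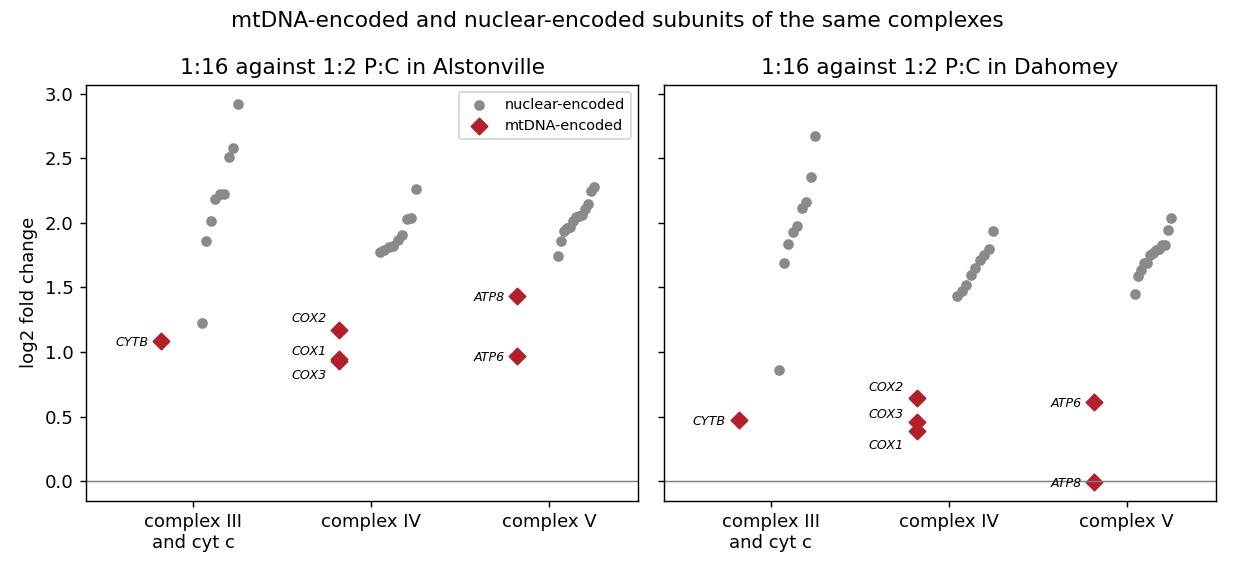
log2 fold change of 1:16 over 1:2 P:C (vertical axis) for the mtDNA-encoded (red diamonds) and nuclear-encoded (grey points, sorted) subunits of complexes III, IV and V, in Alstonville (left) and Dahomey larvae (right). All 31 nuclear subunits lie above the mtDNA-encoded genes of their own complex in both panels, with UQCR-11 (1.22 and 0.86) nearest to CYTB (1.09 and 0.48).

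Genes that act on mtDNA transcripts were also higher on the carbohydrate diet. All 9 genes of transcription and mRNA handling had a log2 fold change above 0 in both mitotypes. Of them, 8 were called as higher in Alstonville and 6 in Dahomey, against 30.6% and 24.6% of all genes. PolrMT, the mitochondrial RNA polymerase, was called in both (1.84, adjusted p = 5.95e-06, and 1.35, adjusted p = 1.44e-04). So was bsf, a pentatricopeptide protein that binds mitochondrial mRNA (1.43, adjusted p = 9.03e-07, and 1.04, adjusted p = 2.56e-05). All 6 complex IV assembly factors rose in both mitotypes, with Cox10, which takes part in making the heme of COX1, highest (2.31, adjusted p = 7.66e-06, and 1.98, adjusted p = 6.24e-05). Between mitotypes on 1:16, none of the 31 nuclear subunits passed, with a median of -0.58, and 15 had an unadjusted p under 0.05, against the 32% of all genes given above. In that comparison Scox, a copper chaperone of complex IV, was lower in Dahomey (-0.45, adjusted p = 0.0421), as were bsf (-0.51, adjusted p = 0.0103) and mTerf3 (-0.48, adjusted p = 0.0111), a regulator of mitochondrial gene expression. Of all genes, 9.3% were called as lower there. TFAM, which packages mtDNA and takes part in its transcription, was the fourth listed gene called there (-0.22, adjusted p = 0.0291) and was named after its value was seen. The study itself reported no differential expression of TFAM between mitotypes on this diet, by its own RNA-seq analysis and by RT-qPCR. On 1:2 none of the 46 passed, and the median of the nuclear subunits was -0.32, opposite in sign to the 0.15 of the 6 mtDNA-encoded genes. None of the 46 passed for the interaction.

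The remaining mtDNA-encoded proteins are the 7 ND subunits of complex I, of which 3 are on the plus strand with the 6 genes here and 4 on the minus strand. In Alstonville, 1 of 3 and 3 of 4 of them were called as higher on 1:16, with medians of 1.21 and 1.18. In Dahomey 1 of 3 and 2 of 4 were called as higher, with medians of 0.21 and 0.49. Of all genes, 30.6% and 24.6% were called as higher. Log2 fold changes were above 0 for 3 of 3 and 3 of 4 in Alstonville and for 2 of 3 and 3 of 4 in Dahomey. Of all 12750 genes, 5854 were above 0 in Alstonville and 5588 in Dahomey. On 1:16 the 4 minus-strand genes had a median of -0.57 for Dahomey over Alstonville, with 2 called as lower, beside -0.46 with 1 called for the 6 genes. Of all genes, 9.3% were called as lower in that comparison. No difference between these sets was tested.

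Across the 16 libraries COX1, COX2, COX3, ATP6 and CYTB followed each other closely. Their log2 CPM correlated pairwise with r from 0.931 to 0.995, and with group means removed from 0.872 to 0.984, a description over libraries that share their scaling and tissue makeup. ATP8 followed the other 5 less, with r from 0.621 to 0.653, and from 0.0396 to 0.177 with group means removed. Among the other mtDNA-encoded genes ND5 was most like the 6, with a median r of 0.983, and srRNA, the small ribosomal RNA, the least (-0.642). The 5 nuclear genes with the highest median r were CG9338 (0.969), VhaSFD (0.966), a subunit of the vacuolar proton pump, CG40486 (0.966), l(3)72Dp (0.965) and mRpS24 (0.965), a mitochondrial ribosomal protein.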

How the data were processed

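RNA-seq libraries of 16 larval samples were analysed. The authors deposited unnormalised gene counts, obtained from paired reads of 100 bases (poly(A)-selected RNA) with the Subread aligner and featureCounts (versions not given in the sources used here). Handling of strand, multi-mapping and overlapping genes was not stated. Of the gene IDs, 17063 matched the RefSeq table of the same assembly. Analyses used R 4.3.3, edgeR 4.0.16 (robust quasi-likelihood F-test, TMM, 1 coefficient per group, Benjamini-Hochberg over 12750 genes, calls at 0.05), limma 3.58.1 and DESeq2 1.42.0. The tests were tested on simulated data. Shares were compared by exact permutation. Named genes were all 6 members, the 5 nuclear genes most correlated with them, the most and least correlated mtDNA genes, and up to 2 called genes per list, direction and comparison. Members and lists were chosen with earlier results of these data known. Of 7 male markers 4 matched. Alternatives were other scalings, filters and tools, surrogate variables, a replicate block, fewer libraries and leaving out each library. Replicate numbers were not taken as pairs, since same-numbered libraries deviated together in 12 of 24 pairs only.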

Additional observations from a re-analysis of the deposited data

Results flagged for a closer look

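In each group of 4 libraries the CPM and the share of each of the 6 genes were checked for a library far from the other 3 with Dixon's test. Of 48 groups in all, 8 had such a library. Chance picks out about 1 in 20 independent groups, but these 48 share their libraries, so the 8 cannot be set against that rate. In Alstonville on 1:2 P:C, replicate 4 was far above the other 3 in COX1 (12683.5 CPM against 8048 to 8405), ATP6 (2024.7 against 1117 to 1201), COX3 (7688.62 against 4790 to 4909) and CYTB (5068.18 against 3110 to 3251). The same library had the highest muscle, fat body and midgut markers of its group, and their part in these values was not tested. In Dahomey on 1:2 P:C, replicate 1 stood out for ATP8 in CPM (4.65 against 0.574 to 1.18) and in its share of mtDNA protein-coding counts (0.0182% against 0.00207 to 0.00448%). CYTB was high in Alstonville 1:16 P:C replicate 2 (8335.84 CPM against 7448 to 7583), and its share was high in replicate 1 of that group (16.4% against 15.9 to 16.0%).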

How the results depend on the processing

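On 1:16, the number of the 6 genes called between mitotypes was 1 in the main analysis. It was 0 under upper-quartile or relative log expression scaling, with at least 10 counts in every library, with no filter beyond 1 count, and with library totals. It was 2 with DESeq2, with limma-trend and 0 or 1 surrogate variables, and with both libraries that stood apart left out, 3 with only the libraries of the comparison, and 5 with 2 or 3 surrogate variables. For the interaction it was 0, but 5 with 2 or 3 surrogate variables and 4 with both libraries left out. Calls over all genes moved too, of 9514 to 16080 tested. On 1:16 they were 1952 in the main analysis and 1120 to 2010 in the settings above with 0 of the 6. They were 2081 to 4452 in those with 2, 4765 in that with 3, and 6459 or 6843 in those with 5. For the interaction they were 100, but 3582 or 4074 with 2 or 3 surrogate variables and 318 with both libraries left out. Library totals and the fits without both libraries were chosen after seeing the data. The cause of these changes was not tested.

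With the replicate number as a block, 0 of the 6 genes were called between mitotypes on 1:16 (CYTB adjusted p = 0.0669 in edgeR) and 3 for diet in Dahomey. Of all 12750 genes, 1739 and 6120 were called in these comparisons. The log2 fold change of ATP8 for diet in Dahomey was 0.28 with the block.

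Leaving out each library in turn gave 0 to 3 calls between mitotypes on 1:16, 5 to 6 for diet in Alstonville, 1 (COX2, without 1:2 replicate 2) to 5 for diet in Dahomey and 0 to 2 for the interaction. For diet, these fits called from 6691 of 12611 to 8451 of 12735 genes in Alstonville. In Dahomey they called from 5305 of 12725 to 6645 of 12735. Of all genes, 12 were called between mitotypes on 1:2, 1952 on 1:16 and 100 for the interaction, against 0 to 261, 1021 to 6843 and 4 to 4074 over all settings, these left-out libraries included.

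Signs turned for small differences. ATP8 in Dahomey, at -0.00 between diets, was 0.064 with upper-quartile scaling, 0.0138 with at least 10 counts, 0.47 in limma-trend with 0 to 3 surrogate variables, 0.0133 with both libraries left out, and -0.37 to 1.09 with each library left out. Between mitotypes on 1:2, ATP6 was 0.0488 with both left out and -0.28 to 0.0490 with each left out, and ATP8 -0.42 to 1.00.

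Among shares, in percentage points, the denominator of all mtDNA-encoded genes gave -0.808 for COX1, -0.0573 for COX2 and -0.0645 for COX3 between mitotypes on 1:16. It gave 1.37 for COX1, 0.271 for ATP6 and 0.684 for COX3 between diets in Alstonville, and 0.230 for COX1 and 0.590 for COX3 in Dahomey. Per kilobase, CYTB was -0.140 between diets in Dahomey. With both libraries left out, ATP6 was 0.0472 between diets in Alstonville. Shares with an exact permutation p under 0.05 numbered 0 on 1:2 with both left out, and 2 between diets in Dahomey per kilobase or over all mtDNA-encoded genes. With each library left out, they numbered 0 to 2 and 1 to 3 between mitotypes on 1:2 and 1:16, and 1 to 4 and 1 to 3 between diets in Alstonville and Dahomey. Fewer arrangements are possible with a library left out, so a lower number can come from the test itself. Without Alstonville 1:2 replicate 1, the ATP6 shares on 1:2 still did not overlap, with an exact permutation p of 0.0571. With each library left out, share differences ran from -0.00156 to 0.00380 for ATP8 on 1:2 and from -0.233 to 0.0472 for ATP6 between diets in Alstonville. Between diets in Dahomey they ran from -0.00348 to 0.00188 for ATP8, from -0.301 to 0.200 for COX3 and from -0.0720 to 0.348 for CYTB.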
